A study of Mus musculus with 11 samples.

Results

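Families of cell cycle and DNA replication genes were examined in the neocortex of mouse embryos that lack synaptic activity. Members were taken by the symbol of their array probe: minichromosome maintenance (Mcm), origin recognition (Orc), cyclin, Cdk, Cdc, ribonucleotide reductase (Rrm), replicative polymerase (Pola, Pold, Pole), centromere (Cenp), Aurora, Polo-like (Plk), Bub, E2f, topoisomerase, Rfc and Rpa genes, and Pcna and Mki67. Ccng1, Cdkn1a and the Cdc42 genes were left out by the same rule. This gave 90 genes with 1 probe each, of 6041 genes named on the array. RNA of 1 null mutant embryo per array, on a C57BL/6 background at embryonic day 18, was set against RNA of wild-type neocortex of the same background on 11 two-colour arrays. The record calls the mutant synaptically silent, and the null allele is not described there as restricted to a cell type. The wild-type partner is given as pooled and was read as 1 common pool. Of the mutant samples, those on arrays 1, 2, 6, 7, 8 and 10 were labelled with Cy3, and those on arrays 3, 4, 5, 9 and 11 with Cy5. Labels of arrays 1 and 6 disagree on the age of the wild-type RNA, with day 14 in 1 field and day 18 in another.

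Cells prepare for replication in the G1 phase, when the origin recognition complex and Cdc6 load a ring of Mcm proteins onto DNA. Cyclins bind and activate Cdk kinases, which release E2f transcription factors from the retinoblastoma proteins and later fire origins and drive mitosis, while Cdk inhibitors hold the kinases back. In the embryonic neocortex the dividing cells are mainly radial glia and intermediate progenitors near the ventricle, and neurons have left the cycle. Glia, microglia and vascular cells divide there too.

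The start regions of members show a feature that the choice did not use. E2f factors bind variants of a short GC-rich element, searched here as TTTCCCGC, TTTGGCGC, TTTCGCGC and TTTGCCGC on both strands, and CCAAT is the element of the factor NF-Y. RefSeq windows of assembly GRCm38.p6, from 250 bases before to 50 after a start, were matched by symbol for 76 of the 90 members, 13 of them with several windows. E2F-type letters stood in 16 of these 76 members (21.1%), against 2.61% of 27025 genes with a window and 4.24% of the 4784 of them on the array. CCAAT stood in 52 members (68.4%), against 41.1% of all genes and 42.7% of those on the array. TTTGAA, the core of the cell cycle homology region, stood in 17 members (22.4%), against 20.2% and 15.4%. Among the 15 members with a window that rose in the null, 5 held E2F-type letters, and among the 50 tested without a call 9 did (18.0%). These shares rest on few genes, and their difference was not tested. Mcm6, with 3 E2F-type matches, and Mcm3, with 2, did not pass. These matches describe letters and are not measured binding. The windows below are those of the members with the highest and the lowest ratio, Rrm2 and Cdkn2d, and of 3 members with E2F-type letters that rose, with E2F-type letters and CCAAT in capitals on either strand. In Mcm5 the first run of capitals holds 2 overlapping E2F-type matches.
Rrm2 (chr12:24708004-24708303, plus strand): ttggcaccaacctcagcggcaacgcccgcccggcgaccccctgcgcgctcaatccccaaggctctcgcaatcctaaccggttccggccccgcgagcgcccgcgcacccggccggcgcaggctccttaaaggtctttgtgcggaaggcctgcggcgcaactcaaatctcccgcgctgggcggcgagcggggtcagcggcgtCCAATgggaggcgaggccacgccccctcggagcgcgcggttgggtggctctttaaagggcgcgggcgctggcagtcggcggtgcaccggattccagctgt
Cdk2 (chr10:128705002-128705301, minus strand): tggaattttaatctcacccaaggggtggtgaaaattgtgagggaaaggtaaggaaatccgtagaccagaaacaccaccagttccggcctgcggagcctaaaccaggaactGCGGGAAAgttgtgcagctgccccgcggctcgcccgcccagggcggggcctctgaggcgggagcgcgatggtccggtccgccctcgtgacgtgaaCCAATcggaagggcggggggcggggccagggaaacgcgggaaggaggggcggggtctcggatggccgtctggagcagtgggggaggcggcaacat
Mcm5 (chr8:75109259-75109558, plus strand): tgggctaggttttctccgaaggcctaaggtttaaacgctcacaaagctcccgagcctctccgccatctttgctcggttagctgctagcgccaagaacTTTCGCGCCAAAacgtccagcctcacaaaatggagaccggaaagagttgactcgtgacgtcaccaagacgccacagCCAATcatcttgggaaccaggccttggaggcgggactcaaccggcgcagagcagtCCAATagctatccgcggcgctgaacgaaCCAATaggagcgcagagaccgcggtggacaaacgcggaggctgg
Cdc25a (chr9:109875329-109875628, plus strand): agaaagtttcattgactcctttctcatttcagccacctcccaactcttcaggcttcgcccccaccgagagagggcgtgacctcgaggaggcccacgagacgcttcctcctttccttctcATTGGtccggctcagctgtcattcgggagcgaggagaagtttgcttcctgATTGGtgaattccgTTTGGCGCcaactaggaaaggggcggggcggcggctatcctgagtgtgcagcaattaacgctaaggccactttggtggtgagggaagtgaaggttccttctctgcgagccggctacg
Cdkn2d (chr9:21291160-21291459, minus strand): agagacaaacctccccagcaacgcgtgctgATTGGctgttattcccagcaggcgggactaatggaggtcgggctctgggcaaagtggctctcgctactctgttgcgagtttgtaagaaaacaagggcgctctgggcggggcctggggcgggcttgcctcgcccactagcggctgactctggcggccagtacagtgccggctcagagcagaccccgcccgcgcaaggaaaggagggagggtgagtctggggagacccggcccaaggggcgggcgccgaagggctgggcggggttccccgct
The windows of Rrm2 and Cdkn2d hold CCAAT and none of the E2F-type letters searched.

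The deposited values are log ratios, 1 per probe and array, and neither log base nor direction is stated with them. They were read as log2 of null over wild type. That direction is likely from Xist, the RNA that silences an X chromosome in female cells, which lay between -7.37 and -4.18 on 6 arrays of both dye orientations. On arrays 6, 7, 9 and 11 Xist was at 0.00, 0.57, 0.36 and 0.67, and array 4 had no value. Read the other way, the common pool would be the sample poor in Xist, as a pool of male embryos only would be. Xist therefore does not settle the direction. Each array is centred near 0, so a shift shared by all transcripts would not show. Ratios carry no level, so neither the abundance of a member nor the tissue label could be checked against markers. The arrays held 4822 to 6316 values each, and their number limits the precision. Array 4 had the widest spread, with an SD of 0.563 over all probes against 0.266 to 0.361 on the other 10. Of 76 members tested with a value on array 4, 45 had their lowest or highest value there. In bulk RNA, fewer cells of a type and less RNA per cell cannot be told apart. Nothing in the record says more of how embryos were sampled, so p-values measure the spread between these arrays.

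Cell cycle and replication genes differed from wild type by small amounts, and more of them were higher than lower. Of 81 members with enough values to test with limma, 18 rose, 5 fell and 58 did not pass an adjusted p of 0.05. The largest rise was that of Rrm2, at 1.23-fold, and none of the 23 called members moved by more than 0.5 on the log2 scale. The called share, 28.4%, was close to the 28.6% of all 5399 probes tested, so being called does not set the members apart. By direction, 22.2% of the members rose against 14.7% of all probes, and 6.17% fell against 14.0%. Mean ratios lay above 0 for 55 of 81 members (67.9%), against 48.7% of all probes. The median member ratio was 0.07, against -0.01 for all probes, and the middle range of members ran from -0.02 to 0.14. The median standard error of a member was 0.06, so most single members cannot be told from 0.

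**Figure D1:**
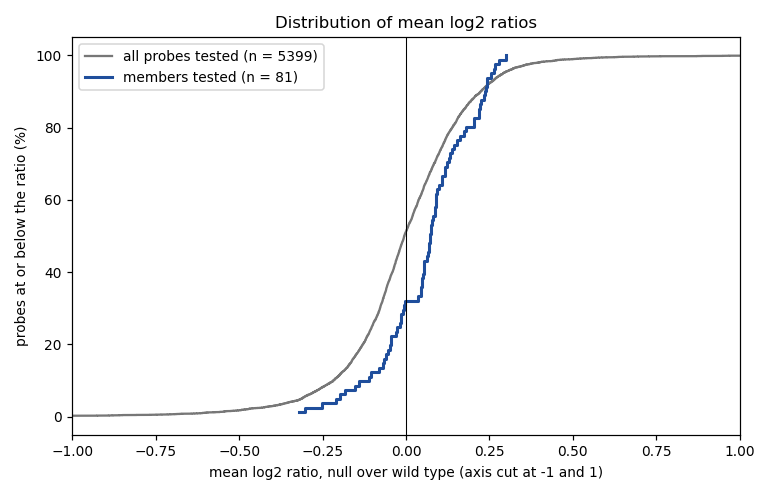
Cumulative share of probes (y axis, percent) at or below each mean log2 ratio of null over wild type (x axis, cut at -1 and 1), for the 81 members tested and for all 5399 probes tested. The members' curve lies to the right through its middle, with medians of 0.07 and -0.01, and lacks the long tails of the other curve.

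**Figure D2:**
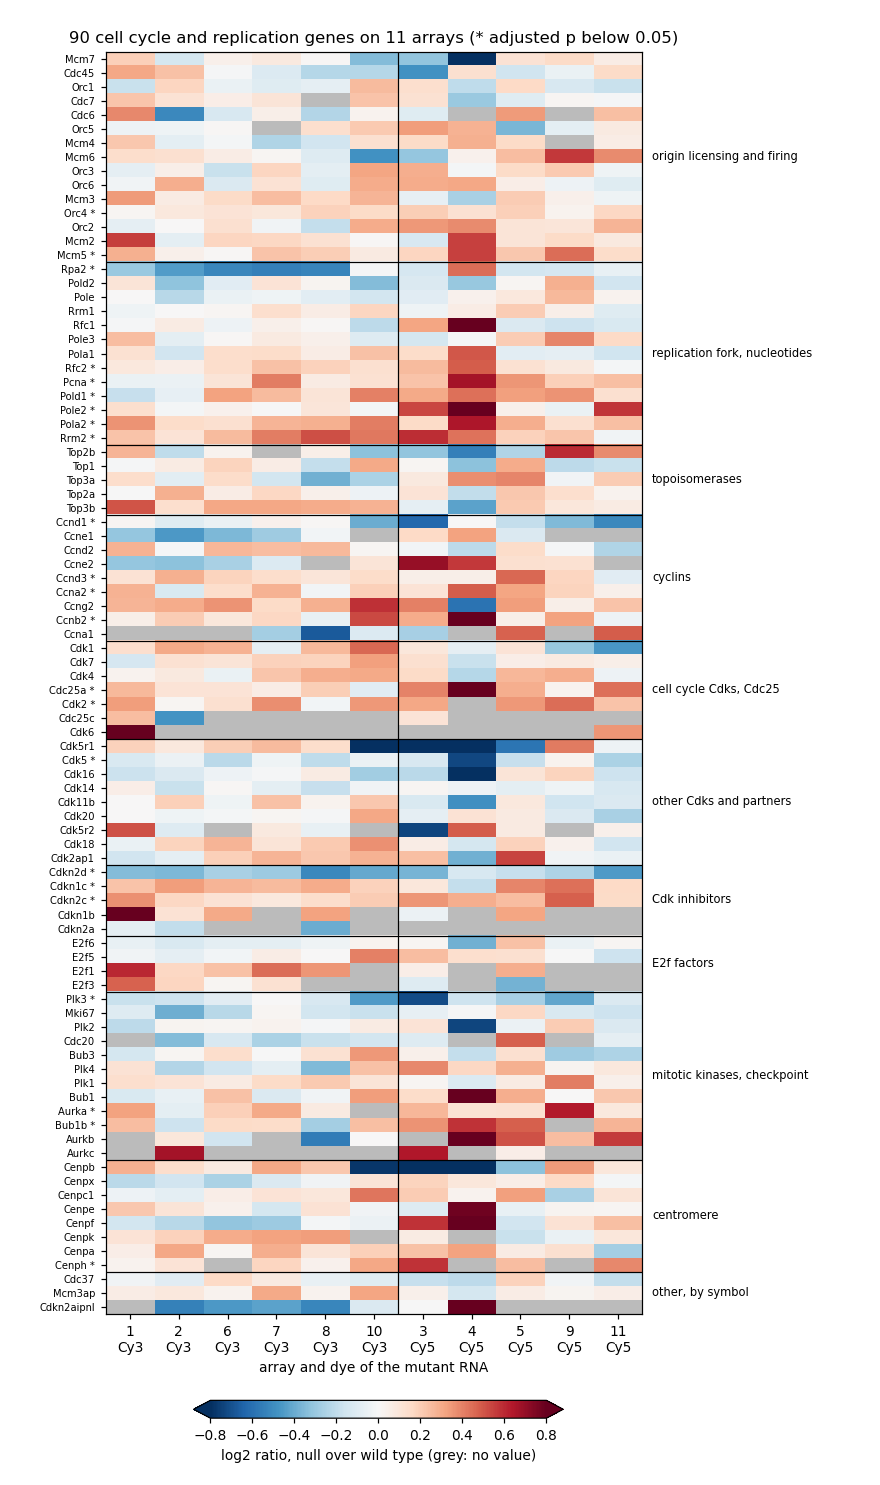
Log2 ratio of null over wild type (colour, saturating at -0.8 and 0.8) of each of the 90 members (rows, by role) on each array (columns, by dye of the mutant RNA). Asterisks mark the 23 members past an adjusted p of 0.05, and grey cells have no value. Called members are pale on most arrays, and array 4 holds many of the strongest colours in both directions.

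At the replication fork, genes of polymerases, clamp and nucleotide supply gave the most rises of any role by number. Of 13 members tested 6 rose, 1 fell and 6 did not pass. Roles differ in size and were not compared by a test. Of all probes tested, 14.7% rose and 14.0% fell, which stands beside the counts of each role here and below. Rrm2, the regulated subunit of the reductase that makes deoxynucleotides, ranged from -0.03 to 0.59 over 11 arrays with a median of 0.25. It was above 0 on 10 arrays and rose by 0.30 ± 0.06 (SE, n = 11, adjusted p = 0.0019). Its partner subunit Rrm1 ranged from -0.10 to 0.20, with a mean of 0.05 ± 0.04 (adjusted p = 0.416). Pola2, a subunit of the polymerase that starts each strand with primase, ranged from 0.13 to 0.65 with a median of 0.27. All 11 arrays were above 0, and the mean was 0.28 ± 0.05 (adjusted p = 0.0014). The catalytic subunit of the same polymerase, Pola1, had a mean of 0.08 ± 0.06 (adjusted p = 0.342).

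Pold1, the catalytic subunit of the lagging strand polymerase, ranged from -0.18 to 0.44 with a median of 0.30 and rose by 0.23 ± 0.06 (adjusted p = 0.0094). Its accessory subunit Pold2 lay at -0.07 ± 0.06. Pcna, the sliding clamp that holds polymerases on DNA, ranged from -0.05 to 0.66 with a median of 0.19. It was above 0 on 9 arrays and rose by 0.22 ± 0.06 (adjusted p = 0.00998). Its mean was 0.10 on the Cy3 arrays and 0.34 on the Cy5 arrays, and neither passed alone (adjusted p = 0.325 and 0.056). Rfc2, a subunit of the loader that opens the clamp, ranged from -0.02 to 0.49 and rose by 0.16 ± 0.05 (adjusted p = 0.021), whereas the large loader subunit Rfc1 lay at 0.06 ± 0.08. The Rfc2 call ended without array 7 (adjusted p = 0.052), without arrays 1 and 6 (adjusted p = 0.061) and without arrays 3, 4 and 10, where its mean was 0.10 (adjusted p = 0.087).

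Pole2, an accessory subunit of the leading strand polymerase, ranged from -0.05 to 1.08 with a median of 0.04. The mean rise of 0.24 ± 0.08 (adjusted p = 0.045) rested mostly on arrays 3, 4 and 11, at 0.53, 1.08 and 0.57, while the other 8 lay between -0.05 and 0.14. Without array 4 the mean was 0.16 (adjusted p = 0.074), and the call also ended without array 1, 2, 3, 6, 7, 8, 10 or 11, at adjusted p from 0.055 to 0.095. It was 0.12 without arrays 3, 4 and 10 (adjusted p = 0.172), and exact sign flips gave an adjusted p of 0.106. The catalytic subunit Pole and the subunit Pole3 had means of -0.01 and 0.08. Rpa2, of the complex that coats single-stranded DNA, was the member of this role that fell. It was below 0 on 10 arrays, from -0.54 to 0.45 with a median of -0.15, and fell by 0.20 ± 0.07 (adjusted p = 0.035). The mean was -0.39 on the Cy3 arrays and -0.01 on the Cy5 arrays, where array 4 stood at 0.45, and the dye term did not pass (adjusted p = 0.122). Leaving out array 2, 3, 5, 6, 7, 8, 9 or 11 ended the Rpa2 call, at adjusted p from 0.065 to 0.078, and exact sign flips did so at 0.137.

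Of 15 genes that license and fire origins, 2 rose, 0 fell and 13 did not pass. At an unadjusted p of 0.05 limma counted 4 higher and 0 lower, as did exact sign flips. Counts at an unadjusted p, here and below, were made for members only. All probes were not counted at that threshold, so such counts do not set the members apart. Mcm5, a subunit of the ring-shaped helicase, was above 0 on all 11 arrays, from 0.01 to 0.55 with a median of 0.19. Its mean was 0.22 ± 0.05 (adjusted p = 0.0044). The other 5 ring subunits did not pass, with means of 0.15 for Mcm2, 0.09 for Mcm3, 0.07 for Mcm4, 0.07 for Mcm6 and -0.11 for Mcm7. Mcm7 had the lowest mean of this role and a wide range, with -0.98 on array 4, -0.35 on array 10 and -0.31 on array 3 against -0.14 to 0.19 on the others. Without array 4, Mcm3 passed at 0.12 (adjusted p = 0.047), and without arrays 3, 4 and 10 Mcm6 did at 0.22 (adjusted p = 0.0048). Orc4, a subunit of the origin recognition complex, varied least of the called members: it ranged from 0.02 to 0.19, lay above 0 on all 11 arrays and rose by 0.12 ± 0.04 (adjusted p = 0.022). The Orc4 call ended without array 3 or array 8, at an adjusted p of 0.052 and 0.051. Of the other origin recognition subunits, Orc1 lay at -0.02, Orc5 at 0.05, Orc3 at 0.08, Orc6 at 0.09 and Orc2 at 0.13. Orc2 passed without array 8, at 0.15 (adjusted p = 0.046). The loader Cdc6 had a mean of 0.05 ± 0.09 (n = 9), the firing kinase Cdc7 one of 0.05 ± 0.05 and the helicase cofactor Cdc45 one of -0.04 ± 0.07.

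Among the cyclins, 3 of 8 tested rose and 1 fell, with 1 of the D type in each direction. Ccnd1, which links growth signals to the entry into the cycle, fell by 0.21 ± 0.06 (n = 11, adjusted p = 0.020). Its values ranged from -0.63 to 0.03 with a median of -0.09, and 4 arrays lay slightly above 0. The mean was -0.34 where the mutant carried Cy5 and -0.08 in Cy3, and the dye term did not pass (adjusted p = 0.231). The call ended without array 3 or array 11, at an adjusted p of 0.051 and 0.053, and with exact sign flips, at 0.070. Ccnd3 ranged from -0.09 to 0.46, was above 0 on 10 arrays and rose by 0.14 ± 0.05 (adjusted p = 0.043). That call ended with any of arrays 1, 2, 3, 5, 6, 7, 8, 9 and 10 left out, at adjusted p from 0.053 to 0.095. Ccnd2, the third D-type cyclin, had a mean of 0.05 ± 0.05 (adjusted p = 0.425).

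The cyclins of later phases were higher where they passed. Ccna2, of the S and G2 phases, ranged from -0.12 to 0.49 with a median of 0.18 and rose by 0.17 ± 0.05 (adjusted p = 0.025). Ccnb2, a mitotic cyclin, ranged from -0.06 to 0.89 with a median of 0.17 and rose by 0.23 ± 0.08 (adjusted p = 0.037). Both were above 0 on 9 of 11 arrays. The Ccna2 call ended without array 1, 5 or 7, at adjusted p from 0.053 to 0.060. The Ccnb2 call ended without array 2, 3, 4, 6, 7, 9 or 10, at adjusted p from 0.055 to 0.066. Its mean was 0.16 without array 4, 0.13 with array weights (adjusted p = 0.084) and 0.10 without arrays 3, 4 and 10 (adjusted p = 0.159). The G1/S cyclins Ccne1 and Ccne2 were at -0.08 ± 0.07 (n = 8) and 0.10 ± 0.07 (n = 9). Their means were -0.29 and -0.18 on the Cy3 arrays and 0.12 and 0.38 on the Cy5 arrays, and the dye terms did not pass (adjusted p = 0.129 and 0.074). On the Cy3 arrays alone Ccne1 passed as lower (adjusted p = 0.023). Ccng2, an atypical cyclin of cells leaving the cycle, was above 0 on 10 arrays with a median of 0.29 and at -0.59 on array 4. Its mean of 0.20 ± 0.08 missed the threshold (adjusted p = 0.063), and without array 4 it was 0.29 (adjusted p = 0.00095).

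Of the kinases that drive the cycle and their Cdc25 activators, 2 of 5 tested rose and 3 did not pass, and all 5 means were above 0. Cdk2, the kinase of cyclins E and A, ranged from -0.02 to 0.44 with a median of 0.32. It was above 0 on 9 of 10 arrays and rose by 0.27 ± 0.05 (adjusted p = 0.0028). Cdc25a, the phosphatase that activates Cdk2, ranged from -0.09 to 0.85 and was above 0 on 10 of 11 arrays. Its rise of 0.25 ± 0.06 (adjusted p = 0.0088) was made of means of 0.11 on the Cy3 arrays and 0.40 on the Cy5 arrays. Cdk4, the partner of the D-type cyclins, had a mean of 0.12 ± 0.06 (adjusted p = 0.136) and passed without array 4, at 0.16 (adjusted p = 0.032). Cdk1, the mitotic kinase, ranged from -0.47 to 0.46. Its mean was 0.05 ± 0.06 (adjusted p = 0.587), with 0.23 on the Cy3 arrays, which passed alone (adjusted p = 0.044), and -0.13 on the Cy5 arrays. Cdk7, which activates other Cdks, had a mean of 0.08 ± 0.05.

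All 3 Cdk inhibitors tested, of 5 members of this role, passed, 2 higher and 1 lower. Of all probes, 28.6% were called. Cdkn2d, the INK4-type inhibitor p19, had the lowest mean of all members: it was below 0 on all 11 arrays, from -0.52 to -0.13 with a median of -0.35, and fell by 0.32 ± 0.04 (0.801-fold, adjusted p = 0.00013). Its relative Cdkn2c, the INK4-type inhibitor p18, was above 0 on all 11 arrays, from 0.09 to 0.48 with a median of 0.20. It rose by 0.24 ± 0.04 (adjusted p = 0.0010), so the values of these INK4 genes did not overlap. Both encode inhibitors of Cdk4 and Cdk6. Cdkn1c, an inhibitor of the Cip/Kip type known as p57, was above 0 on 10 of 11 arrays, from -0.19 on array 4 to 0.44 with a median of 0.25. It rose by 0.22 ± 0.05 (adjusted p = 0.0084). These calls held with each array left out in turn.

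Members that stand above 0 on every array measured were 5 of 81 (6.17%), against 4.04% of all probes: Cdkn2c, Pola2, Mcm5, Orc4 and Cenph. Cdkn2d alone was below 0 on every array, 1.23% of the members against 5.17% of all probes.

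**Figure D3:**
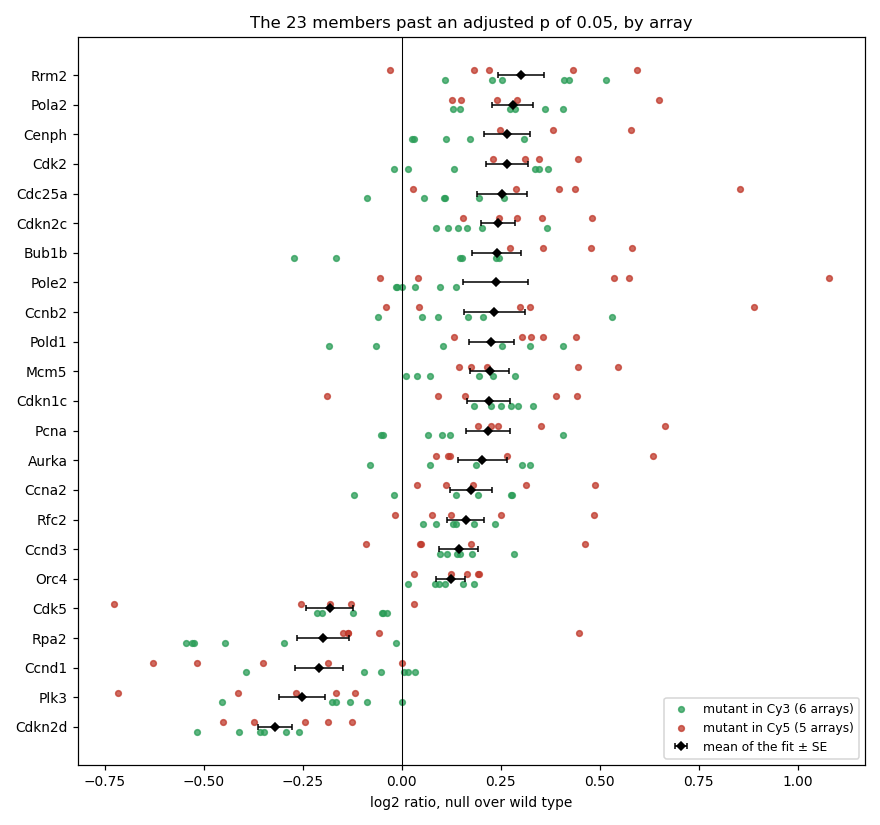
Log2 ratio of null over wild type (x axis) on each array for the 23 members past an adjusted p of 0.05 (rows), with Cy3 and Cy5 arrays as separate points and the mean of the fit with its SE as diamonds. Values of Cdkn2c, Pola2, Mcm5, Orc4 and Cenph all lie above 0 and those of Cdkn2d below it, whereas the points of Pole2, Ccnb2 and Rpa2 spread across 0.

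Mitotic kinases and checkpoint genes gave 2 rises and 1 fall among 11 tested. Aurka, the kinase of centrosome and spindle assembly, ranged from -0.08 to 0.64 and rose by 0.20 ± 0.06 (n = 10, adjusted p = 0.026). That call ended without array 1, 6 or 7, at adjusted p from 0.055 to 0.068. Bub1b, of the checkpoint that delays the separation of chromosomes, ranged from -0.27 to 0.58 with a median of 0.24 and rose by 0.24 ± 0.06 (n = 10, adjusted p = 0.012). Its mean was 0.42 on the Cy5 arrays and 0.06 on the Cy3 arrays. The Bub1b call ended without arrays 1 and 6 (adjusted p = 0.062), without arrays 3, 4 and 10 (adjusted p = 0.059), without the dye term (adjusted p = 0.070) and with exact sign flips (adjusted p = 0.118). The checkpoint kinase Bub1 had a mean of 0.18 ± 0.08 (adjusted p = 0.095), of which array 4 gave 0.94. Plk3, a stress-responsive Polo-like kinase that also acts outside mitosis, fell by 0.25 ± 0.06 (adjusted p = 0.0060). It ranged from -0.72 to 0.00 with a median of -0.17 and was below 0 on 10 of 11 arrays. Plk1, the main mitotic Polo-like kinase, had a mean of 0.11 ± 0.05 (adjusted p = 0.103) and passed without array 4, at 0.13 (adjusted p = 0.042). Plk4, of centriole duplication, lay at 0.05 ± 0.06, and Plk2 at -0.07 ± 0.07.

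Several genes that are often read as marks of division did not pass. Mki67, the antigen of cycling cells, ranged from -0.39 to 0.16, was below 0 on 9 of 11 arrays and had a mean of -0.11 ± 0.05 (adjusted p = 0.105). Top2a, the topoisomerase of S phase and mitosis, ranged from -0.20 to 0.28 with a mean of 0.07 ± 0.05 (adjusted p = 0.286). Cdc20, the activator of the anaphase-promoting complex, had a mean of -0.05 ± 0.07 (n = 8, adjusted p = 0.603), and on the Cy3 arrays alone it passed as lower at -0.21 (adjusted p = 0.036). Bub3 had a mean of -0.01 ± 0.05. Aurkb, the kinase of the chromosomal passenger complex, ranged from -0.56 on array 8 to 1.25 on array 4, with a mean of 0.24 ± 0.11 (n = 8, adjusted p = 0.108). On the Cy5 arrays alone it passed as higher, at 0.64 (adjusted p = 0.048). It was 1 of 2 tested members with an SD above 0.5 over the arrays. None of the 5 topoisomerase genes passed with limma, from -0.03 for Top2b to 0.14 for Top3b. At an unadjusted p of 0.05, limma counted 1 higher, Top3b, and exact sign flips 0. Top3b passed without array 4, at 0.19 (adjusted p = 0.0063).

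Of 8 centromere genes 1 rose, 0 fell and 7 did not pass. Cenph, of the inner kinetochore, was above 0 on all 8 arrays that measured it, from 0.03 to 0.58 with a median of 0.21. It rose by 0.27 ± 0.06 (adjusted p = 0.0067), with means of 0.13 on the Cy3 arrays and 0.40 on the Cy5 arrays. Cenpa, the histone variant that marks centromeres, was above 0 on 10 of 11 arrays with a mean of 0.13 ± 0.05 (adjusted p = 0.095), and passed without array 11, at 0.17 (adjusted p = 0.021). Cenpb, which binds satellite DNA, had the lowest mean of the role, -0.14 ± 0.12. It lay at -0.91, -0.83 and -0.78 on arrays 3, 4 and 10 and at -0.33 on array 5, while the other 7 arrays were above 0. Cenpf, a protein of the G2 phase and kinetochore, had values of 1.16 on array 4 and 0.58 on array 3 and between -0.32 and 0.24 on the rest, with a mean of 0.11 ± 0.09.

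Of 9 other Cdks and Cdk partners, 1 fell, 0 rose and 8 did not pass, and 6 means were below 0. At an unadjusted p of 0.05, limma and exact sign flips also counted 0 higher. Cdk2ap1, a binding partner of Cdk2, had the highest mean of this role, at 0.09 ± 0.07. Cdk5, the kinase of postmitotic neurons, was below 0 on 10 of 11 arrays, from -0.73 on array 4 to 0.03 with a median of -0.13. It fell by 0.18 ± 0.06 (adjusted p = 0.034), and the call ended without array 1, 6, 7, 8 or 11, at adjusted p from 0.051 to 0.069. Without array 4 the mean was -0.12. Its activator Cdk5r1, known as p35, was the most variable member tested, with an SD of 0.678. It lay at -1.02, -1.54, -0.58 and -1.16 on arrays 3, 4, 5 and 10, and between -0.04 and 0.41 on the other 7. The mean of -0.30 ± 0.16 did not pass (adjusted p = 0.186). The other activator, Cdk5r2, had a mean of 0.04 ± 0.12 (n = 8). Cdk16, a kinase of the PCTAIRE group, had a mean of -0.15 ± 0.08 (adjusted p = 0.195), of which array 4 gave -0.97.

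E2f factors were little measured. E2f5 and E2f6, members that mainly repress, had means of 0.06 ± 0.05 and -0.05 ± 0.05 and did not pass. E2f1, an activating member, had values on 7 arrays, under the 8 needed for the test, and was above 0 on all 7, from 0.05 to 0.60. With a wider filter of at least 5 arrays and 2 of each dye, E2f1 had a mean of 0.27 ± 0.08 (adjusted p = 0.027). The count of members that rose became 19 of 86, against 814 of 5863 probes. E2f3 ranged from -0.38 to 0.47 on 6 arrays. Another 7 members had too few values to test. Of the inhibitors, Cdkn1b ranged from -0.05 to 0.87 on 6 arrays and Cdkn2a from -0.40 to -0.07 on 3. The germline cyclin Ccna1 ranged from -0.67 to 0.49 on 6 arrays, and the D-cyclin kinase Cdk6 had values on 2 arrays, 0.93 and 0.35. Aurkc, the Aurora kinase of germ cells, ranged from 0.05 to 0.66 and the phosphatase Cdc25c from -0.48 to 0.25, on 3 arrays each. Cdkn2aipnl ranged from -0.54 to 2.00 on 7. These few values show no common direction. Mcm3ap, Cdc37 and Cdkn2aipnl entered by their symbols. Mcm3ap, an mRNA export factor, had a mean of 0.07 ± 0.04, and Cdc37, a cochaperone of kinases, one of -0.05 ± 0.05.

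Other genes of the cycle that the symbols do not cover were read from a list of 102, of which 60 were tested after averaging probes of a gene. In this list 17 rose, 1 fell and 42 did not pass. Of all 4811 genes 28.9% were called, 14.5% higher and 14.4% lower. The median was 0.09. By smallest p these were Mybl1, a Myb transcription factor, which rose by 0.40 ± 0.08 (adjusted p = 0.0023), Skp2, which marks p27 for degradation, by 0.22 ± 0.05 (adjusted p = 0.0037), the lamin Lmnb1 by 0.29 ± 0.07 (adjusted p = 0.0053) and the histone methyltransferase Ezh2 by 0.24 ± 0.05 (adjusted p = 0.0055). The gene that fell was Fzr1, which activates the anaphase-promoting complex in G1 and in neurons, at -0.42 ± 0.12 (adjusted p = 0.022). Fzr1 lay at -1.17, -1.33 and -1.07 on arrays 3, 4 and 10 and between -0.59 and 0.17 on the others. Without these 3 arrays its mean was -0.15 (adjusted p = 0.046), and without array 3 alone its adjusted p was 0.054. With single arrays left out, 9 to 15 genes of the list rose, the fewest without array 1, and counts of 11 or fewer also came without array 3, 5, 6, 7 or 8. Without arrays 1 and 6 the count was 8. The matching counts of all genes were not made. Of all 5399 probes, 791 rose with all arrays and 690 without array 1. Without arrays 1 and 6, 536 of 5398 probes rose.

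Markers of cell types were read from the same fit on 4811 genes, of which 28.9% were called, 14.5% higher and 14.4% lower. Of 22 markers of progenitors and radial glia 4 rose, 2 fell and 16 did not pass (median 0.12), among them Prom1 (0.33 ± 0.04) and Eomes (0.44 ± 0.06) higher and Slc1a3 (-0.27 ± 0.06) and Tnc (-0.23 ± 0.05) lower. Of 13 markers of microglia and macrophages 8 rose and 3 fell (median 0.29). Laptm5 (1.01 ± 0.06) and C1qc (0.88 ± 0.06) were higher, and Itgam (-0.18 ± 0.04) and Ptprc (-0.21 ± 0.06) lower. Astrocyte markers gave 5 rises of 9 (median 0.17), with Gfap at 1.48 ± 0.11 and Apoe at 0.95 ± 0.07; Slc1a3, counted above with radial glia, is also an astrocyte gene. Markers of meninges and choroid plexus gave 5 rises and 1 fall of 9 (median 0.21). Among them Ttr, the defining gene of choroid plexus, did not pass (adjusted p = 0.085) but ranged from -1.78 to 5.05, with 2.95, 5.05, 4.61 and 4.94 on arrays 4, 5, 6 and 8. The members' medians on these 4 arrays were 0.04, 0.13, 0.04 and 0.03. Endothelial and pericyte markers gave 4 rises and 1 fall of 13 (median 0.08). Oligodendrocyte lineage markers gave 2 of each among 8 (median 0.05), erythroid markers 1 fall of 5 (median -0.07), and neuron markers 2 rises and 5 falls of 14 (median -0.09), with Gap43 at -0.50 ± 0.04 and Neurod6 at 0.40 ± 0.07. The part of these cells in the members' ratios was not tested.

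By array, the median of the 81 members lay between 0.00 and 0.13 and was above 0 on all 11. That of the other cell cycle genes lay between 0.00 and 0.18, also above 0 on all 11. The median of all probes lay between -0.06 and 0.05. On array 2 it was 0.014, above the members' 0.002, and on array 8 it was 0.032, against 0.031 for the members. Progenitor markers had medians between -0.13 and 0.21, lowest on array 4, and microglia markers between 0.15 and 0.51. Neuron markers had their lowest medians on arrays 3, 4 and 10, at -0.37, -0.35 and -0.21, the arrays on which Cdk5r1, Cenpb and Fzr1 were also lowest. Array 5 came next, at -0.17. Single markers differed: on array 10 Syp lay at -1.55 and Syt1 at -0.76, but Neurod6 and Dcx both at 0.50. The members' medians were 0.10, 0.04 and 0.13 on arrays 3, 4 and 10. Without them, 18 members rose and 4 fell among 80 tested, against 989 and 853 of 5354 probes, but the members were not the same. Bub1b, Ccna2, Ccnb2, Orc4, Pole2, Rfc2 and Cdk5 no longer passed, and Ccng2, Mcm3, Mcm6, Plk1, Pole3 and Top3b passed as higher.

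**Figure D4:**
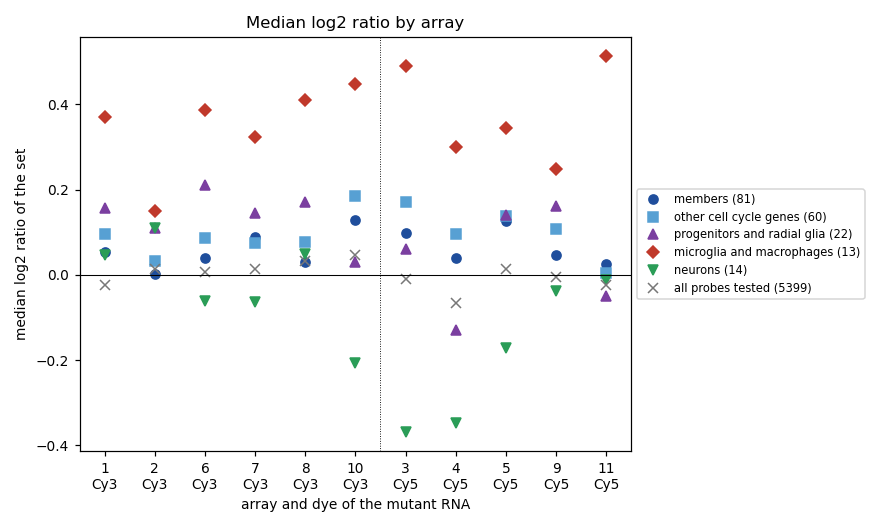
Median log2 ratio of null over wild type (y axis) on each array (x axis, by dye of the mutant RNA) for the members, the other cell cycle genes, 3 marker lists and all probes tested, with the number of genes or probes in brackets. The members stay between 0.00 and 0.13 on all arrays, microglia markers lie between 0.15 and 0.51, and neuron markers reach their lowest values on arrays 3, 4 and 10.

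The dye term of no member passed, with a smallest adjusted p of 0.074 for Ccne2, so the differences in means between the dye orientations given above did not pass. On the 6 Cy3 arrays alone 10 members rose and 4 fell, and on the 5 Cy5 arrays alone 3 rose and 0 fell. Of all 5399 probes, 584 rose and 527 fell on the Cy3 arrays, and 178 rose and 276 fell on the Cy5 arrays. In each orientation alone the share of members that rose was thus nearer that of all probes than with all 11 arrays. At an unadjusted p of 0.05, limma counted 19 higher and 3 lower members on the Cy5 arrays. All probes were not counted at that threshold, so these numbers do not set the members apart. Of the 23 called members, 13 passed with each array left out in turn. The 11 that rose were Rrm2, Pola2, Pold1, Pcna, Mcm5, Cdk2, Cdc25a, Cdkn1c, Cdkn2c, Bub1b and Cenph, and the 2 that fell were Cdkn2d and Plk3. Of these 13, Bub1b did not pass with exact sign flips. Leaving out an array where a member has no value removes nothing, as for Cenph (n = 8), Cdk2 and Bub1b (n = 10 each). Pcna, Mcm5, Cdk2, Cdc25a, Cenph and Plk3 passed on neither the Cy3 nor the Cy5 arrays alone, and the others of the 13 passed on 1 of these sets only. With single arrays left out, 12 to 21 members rose and 2 to 5 fell. Of all 5399 probes, 608 to 847 rose and 594 to 772 fell. The count of falls was 3 without array 3, 6, 7 or 8 and 2 without array 11. Without array 1 and array 6, whose wild-type channel is labelled with different days, 11 members rose and 3 fell. Of all 5398 probes tested then, 536 rose and 512 fell. The 9 calls lost there were Aurka, Bub1b, Ccna2, Ccnb2, Ccnd3, Pole2, Rfc2, Cdk5 and Rpa2.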

How the data were processed

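The authors deposited 1 log ratio per probe and array for 11 two-colour arrays, treated here as log2. No label or header names the log base, background correction or normalization: they are not given in the sources used. Of 6856 probes, 153 were empty on every array, and 17.3% of all cells had no value. Dim probes could not be filtered from ratios alone. The platform's annotation named 6269 probes by 1 symbol, updated through Entrez identifiers to RefSeq (GRCm38.p6) for 6250. A probe listed for Orc4 and another gene was left unnamed. Values of the mutated gene are not reported here.

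Each probe measured on 8 or more arrays, with at least 3 per dye orientation, was given a mean ratio and a dye term in limma 3.58.1 (R 4.3.3), with moderated variances, two-sided, and Benjamini-Hochberg adjustment over 5399 probes at 0.05. With the wild-type RNA read as 1 sample, the test is of the mean against 0, so variation of the wild type does not enter. Errors are standard errors of this fit. Lists were read from the same fit on 4811 genes. Every called member is named, with the extremes of each role and genes of wide spread. The members and lists were chosen with earlier results of these data known. An exact test flipped the signs of arrays. Alternatives changed the dye term, arrays, scaling, probes, variances, threshold and test.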

Additional observations from a re-analysis of the deposited data

How the results depend on the processing

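The 18 rises and 5 falls stayed within 1.5 times under most of 28 alternatives. Some of these could change little. Current symbols named the same 90 members, and averaging probes of a gene left the members' ratios as they were. On the 6 Cy3 arrays 10 members rose, and on the 5 Cy5 arrays 3 rose and 0 fell. Without arrays 1 and 6, 11 rose and 3 fell. At an adjusted p of 0.01, 10 rose and 2 fell, and with unmoderated variances or exact sign flips 3 fell. Of all 5399 probes, 393 rose and 418 fell at 0.01, against 791 and 754 at 0.05. The cause of these changes was not tested, though fewer arrays were fitted in the first 3. With single arrays left out (without replicate 1 to 11), 12 to 21 members rose, 2 to 5 fell, and the median stayed between 0.064 and 0.087. With the sign of the Cy5 arrays turned, 0 members passed with limma in either direction, 6 higher and 12 lower at an unadjusted p of 0.05, and the median was -0.0060. By construction this tests the dye term. Each mean is then the dye term with its sign turned, and no second estimate of null over wild type. In this fit 18 called members changed sign, none past the threshold. Pole2 lay at -0.20, Bub1b at -0.18, Cdc25a at -0.15, Cenph at -0.14, Pcna at -0.12 and Pold1 at -0.086. Mcm5 lay at -0.083, Ccnb2 at -0.070, Cdk2 at -0.068, Cdkn2c at -0.062, Ccna2 at -0.051 and Aurka at -0.042. Rfc2 lay at -0.024, Orc4 at -0.018, Pola2 at -0.013, Ccnd1 at 0.13, Plk3 at 0.084 and Cdk5 at 0.070. Under the other alternatives no called member changed sign. Each value is already a ratio within 1 array. No further pairing was possible, with all arrays in 1 group and the wild-type partner read as common.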
